A study of Arabidopsis with 8 samples.

Results

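The genes described here build, loosen and remodel the plant cell wall. They were taken by name from the platform's gene annotation: a gene belonged if its probe set was annotated to 1 gene and its symbol marked it as an expansin, a xyloglucan endotransglucosylase/hydrolase (XTH), an arabinogalactan or fasciclin-like arabinogalactan protein (AGP, FLA), a beta-galactosidase (BGAL), a cellulose synthase or cellulose synthase-like protein (CESA, CSL) or a pectin methylesterase (PME). The genes were chosen with earlier results of these data known, although the naming rule itself used no measured value. It gave 37 genes, each with 1 probe set, of 22746 probe sets on the array that were not Affymetrix controls. They comprised 18 expansins, 9 XTH genes, 8 CSL genes, PME61 and BGAL16, whereas AGP, FLA and CESA each had 0 genes with such an annotation, so that nothing is said here about arabinogalactan proteins or cellulose synthases. The annotation covered 13513 of the probe sets with 1 gene each, and 2 further probe sets shared by several expansin genes were not counted. The rule thus did not reach every gene of these families, and shares within a family refer to the genes found by name.

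The arrays compared leaves of Arabidopsis Col-0 (WT) with leaves of nNOS transgenic plants, which carry the rat neuronal nitric oxide synthase gene in a Col-0 background behind the cauliflower mosaic virus 35S promoter, a promoter active in most tissues. Plants of both genotypes were 2 weeks old when they were either kept well watered (control) or left without water for 14 d according to the sample labels (drought), and the methods text gives a shorter period. There were 4 groups, WT control, WT drought, nNOS control and nNOS drought, with 2 arrays in each, and leaves came from at least 20 seedlings. The series description states that RNA of 2 transgenic lines, nNOS-2 and nNOS-25, was pooled before labelling, while the extraction text names nNOS-25 alone; the lines cannot be told apart in either case. The 2 arrays of a group are described as replicate leaf samples; whether they were grown apart is not stated, and the tests cover only the spread between such samples. The transgene itself was not checked here.

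A growing cell wall is a network of cellulose microfibrils tethered by xyloglucan and embedded in pectin. Expansins loosen this network without cutting the polymers, alpha-expansins (EXPA) being the classical wall-loosening proteins and beta-expansins (EXPB) a related group; the expansin-like genes (EXLA, EXLB) resemble them in sequence, but a loosening activity has not been established for them. XTH enzymes cut and rejoin xyloglucan chains, CSLC proteins synthesize the xyloglucan backbone, CSLA proteins synthesize mannans, pectin methylesterases remove methyl groups from pectin and beta-galactosidases trim galactose from wall polymers. In leaves, wall extensibility is one of the properties that set growth when water becomes scarce.

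Signals are normalized log2 values, so that a difference of 1 is 2-fold, and signals of different probe sets are not compared as amounts of RNA. The array medians lay between 4.92 and 5.09. A pair of technical measures moved with the groups. The added poly-A control transcripts averaged 8.98 and 9.40 on the nNOS control arrays and 6.04 to 6.88 on the other 6 arrays, and the GAPDH control probe sets gave a 3′ minus 5′ difference of 0.64 to 0.87 under drought and of 1.02 to 1.45 in well-watered plants. Of 42 marker genes listed for leaf and other tissues, 6 had an annotated probe set. The leaf genes LHCB4.1 (13.06 to 13.47) and RCA (12.85 to 13.11) were among the brightest signals of the array. LHCB4.1 was higher in well-watered nNOS than WT plants by 0.35 (limma adjusted p = 0.0220), and RCA passed in none of the comparisons. The root and hypocotyl gene PYK10 read 7.40 to 7.92 and was lower in well-watered nNOS than WT plants by 0.36 (limma adjusted p = 0.0301). The guard cell gene FAMA (3.86 to 4.69) was lower in nNOS plants by 0.64 without and 0.52 with drought (limma adjusted p = 0.00275 and 0.0256), and of the 2 anther markers AMS lay between 2.14 and 2.50 and BGLU20 between 1.72 and 3.56, with both WT control arrays highest, at 3.56 and 3.22. BGLU20 was lower than in WT control by 1.07 in WT drought and by 1.33 in nNOS control (limma adjusted p = 0.00867 and 0.000709). No xylem, phloem or seed marker on the lists had an annotated probe set. What part any of these shifts had in the results below was not tested, and in whole leaves fewer cells of a type and less RNA per cell cannot be told apart.

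Most of the wall genes had modest signals that differed little between groups. Across all probe sets the quartiles of the mean signal were 3.10, 4.99 and 6.88. Of the 37 genes, 7 lay below the lowest quartile, where signal cannot be separated from absence: XTH20, XTH21, XTH26, XTH29, EXPA24, EXPB5 and CSLC12. Another 7 lay above the highest quartile, namely EXPA8, EXLA1, EXPA4, EXLB1, XTH32, CSLC04 and PME61. The highest and lowest group mean of a gene were less than 0.5 apart for 23 genes, 0.5 to 1 apart for 10, and more than 1 apart for 4: XTH19 (1.36), EXPB3 (1.03), EXPB1 (1.02) and EXLA1 (1.01). The median span was 0.45 for the wall genes and 0.43 for all probe sets. The 2 arrays of a group differed by a median SD of 0.0851 in WT control and 0.0594 in WT drought. In nNOS control the median SD was 0.140 and in nNOS drought 0.132. For these genes the spread was thus larger in the nNOS pairs of arrays. With 1 pair per group, whether this belongs to the genotype was not tested.

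**Figure D1:**
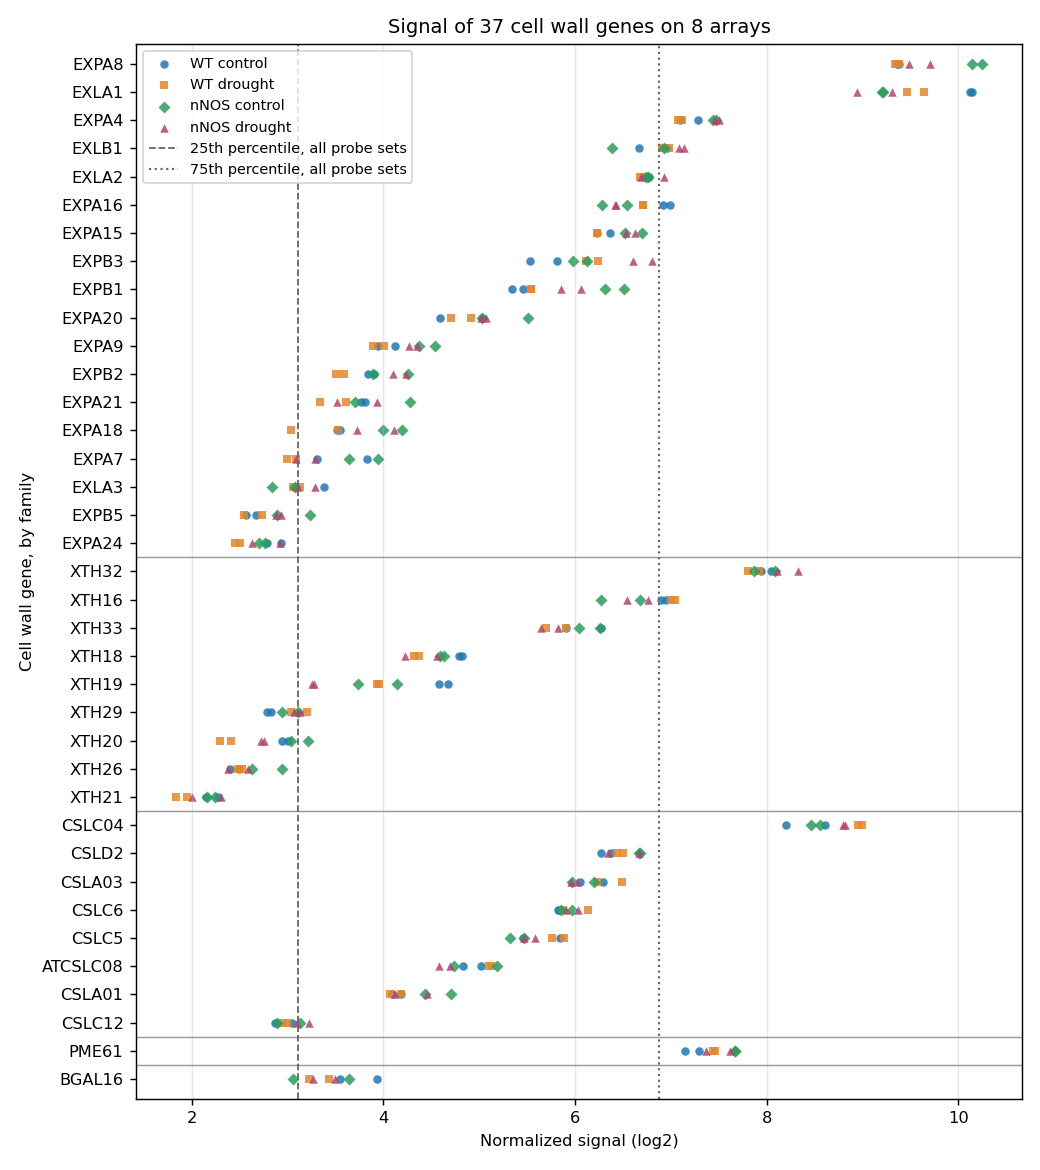
Normalized log2 signal (x axis) of each of the 37 cell wall genes (rows, grouped by family and ordered by mean signal) on each of the 8 arrays; colours and shapes mark the 4 groups, with 2 arrays each, and the vertical lines mark the 25th (3.10) and 75th (6.88) percentile of all probe sets. The group means span the widest range for XTH19, EXPB3, EXPB1 and EXLA1, and the mean signals of 7 genes lie left of the dashed line.

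A gene is described as higher or lower where the limma test passed a Benjamini-Hochberg adjusted p of 0.05 over all probe sets of the table, and as called where the difference also reached 2-fold. Without drought (nNOS control versus WT control), 10 of the 37 genes were higher (13.0% of all probe sets were) and 4 were lower (17.9%). In nNOS drought versus WT drought, 6 were higher (background 3.68%) and 1 was lower (7.0%). In WT drought versus WT control, 2 were higher (5.97%) and 4 were lower (4.92%), and in nNOS drought versus nNOS control 1 was higher (14.0%) and 5 were lower (10.8%). The comparisons share arrays in pairs and are therefore not independent of one another. In all, 20 genes passed in at least 1 comparison and 17 in none, and XTH19 and EXPB3 passed in all 4. The matching shares of all probe sets were not counted, so whether these numbers are high or low cannot be told. The only called gene of the 37 was EXPB1, higher in well-watered nNOS than WT plants. There 0.972% of all probe sets were called higher and 1.18% lower. In the other 3 comparisons of groups 0 of the 37 genes were called. The backgrounds (higher and lower, respectively) were 0.33% and 0.347% for WT drought, 0.809% and 1.16% for nNOS drought and 0.0176% and 0.0703% between the genotypes under drought. Genes of these families that the naming rule did not reach are outside these counts. The study itself listed XTH3 and a pectin methylesterase as lower by at least 2-fold, both with drought in WT and in well-watered nNOS plants. Scaling bears on the direction between genotypes. Centring each array on its median moved the median difference of all probe sets from 0.01 to 0.11 without drought and from 0.04 to 0.14 with drought, and turned the split of all probe sets from 2956 higher and 4071 lower into 4708 and 2972 without drought and from 836 and 1592 into 2352 and 1021 with drought. The wall genes then numbered 14 higher and 3 lower without drought, and 9 higher and 1 lower with drought. Under cyclic loess normalization all probe sets split into 3286 higher and 3099 lower without drought.

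Passing the adjusted p often needed all 8 arrays. All 6 genes that passed in WT drought versus WT control no longer passed when WT control replicate 1 or either WT drought array was left out, and all 7 that passed between the genotypes under drought no longer passed when any 1 of the 4 drought arrays was; their log2 differences stayed between 0.64 and 1.36 times and between 0.62 and 1.38 times the values given here. Of the 14 genes in nNOS control versus WT control, 5 passed under every alternative run, namely EXPB1, EXPA8, EXLA1, EXPA16 and XTH19; without WT control replicate 2 the other genes no longer passed, and the 2 genes then higher were EXPB1 and EXPA8. Over the single arrays left out, the 14 differences stayed between 0.54 and 1.46 times the values given here. In nNOS drought versus nNOS control, EXPA8, XTH19 and EXPB3 passed under every alternative, whereas EXPA7, EXPB1 and XTH20 did not pass without nNOS control replicate 1 or nNOS drought replicate 1, with all 6 differences between 0.697 and 1.303 times the values given here. No difference that had passed changed its sign under any alternative. However, the arrays of the groups compared did not overlap for any of these differences, so leaving out 1 array could not change a sign. Only the other normalizations could have.

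**Figure D2:**
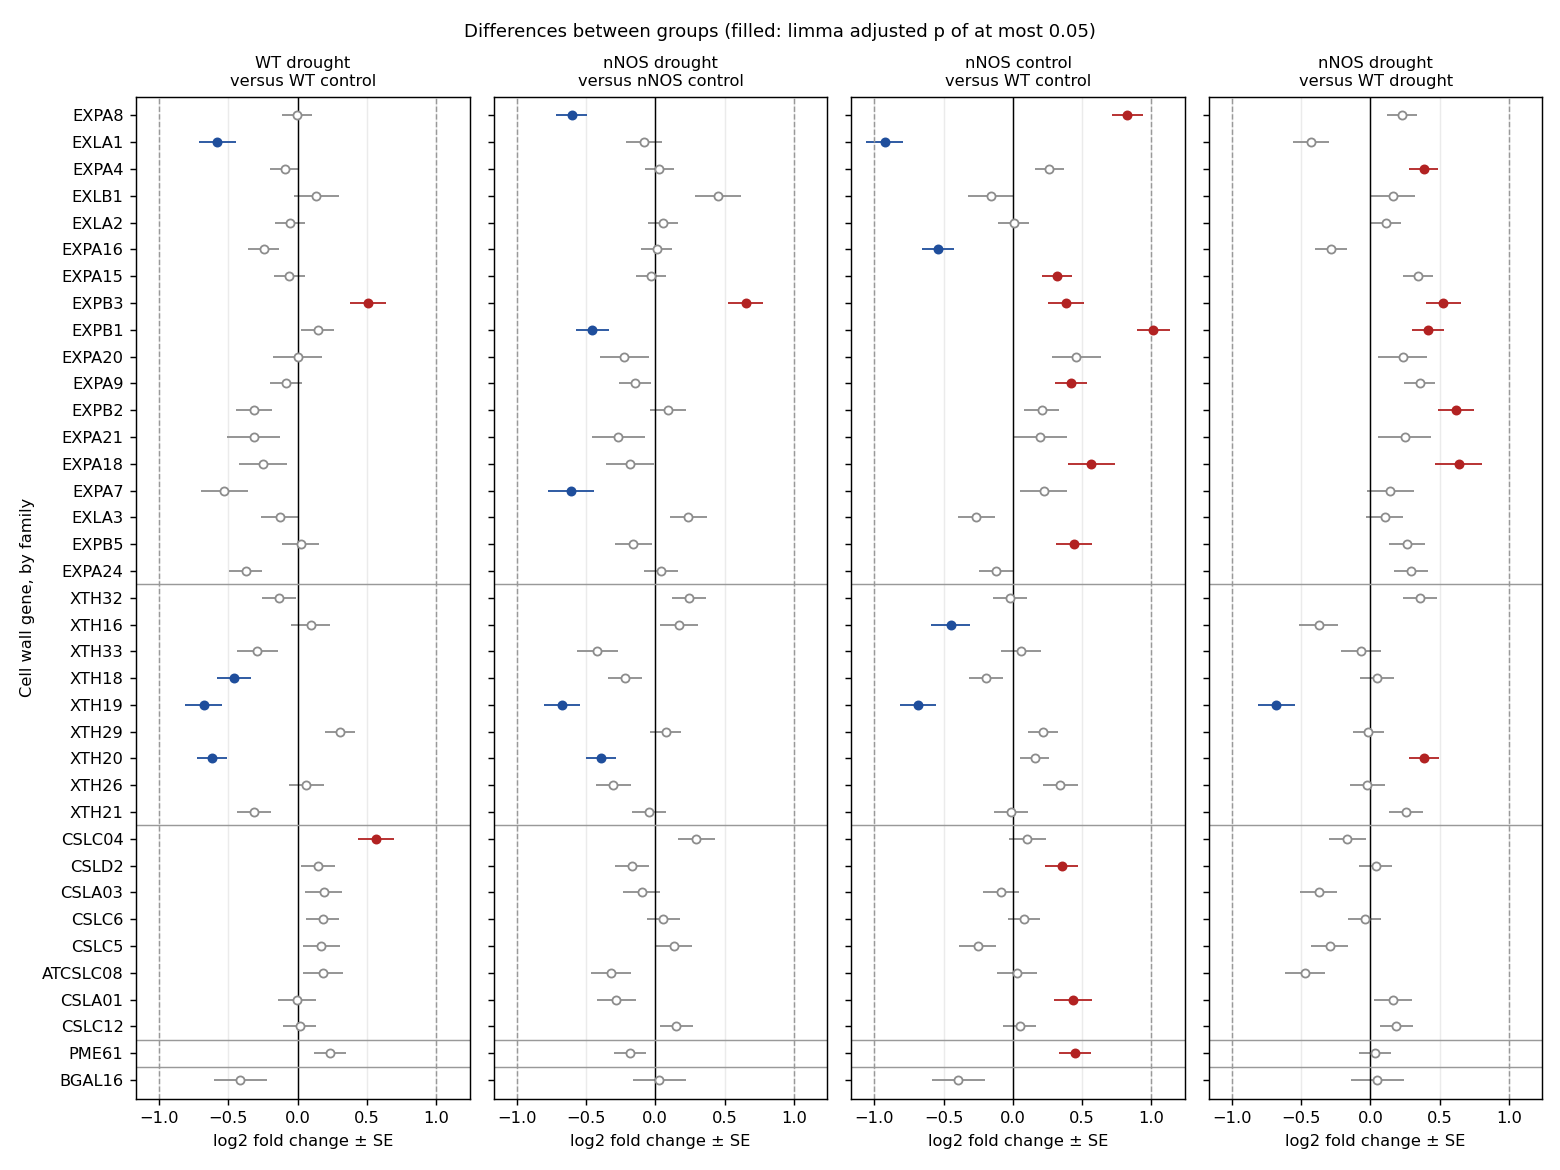
Log2 fold change with its standard error (x axis) of each of the 37 genes (rows) in the 4 comparisons of groups (panels); filled points passed the limma adjusted p of 0.05, red for higher and blue for lower in the first group named, and dashed lines mark 2-fold. EXPB1 in nNOS control versus WT control (1.02) is the only filled point beyond a dashed line.

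Among the families with several genes, the expansins had the largest share of genes that were higher in nNOS transgenic plants than in WT, with or without drought. Without drought, 7 of 18 expansins were higher (38.9%, against a background of 13.0% over all probe sets) and 2 were lower (11.1%, background 17.9%). The median log2 difference was 0.24 over the 18 genes against 0.01 over all probe sets. Under drought, 5 of 18 were higher (27.8%, background 3.68%) and 0 were lower (background 7.0%). The median was 0.26 against 0.04, and 16 of 18 differences were above 0, as were 12605 of 22746 over all probe sets. The drought comparisons gave fewer passing genes. In WT drought versus WT control 1 expansin was higher (5.56%, background 5.97%) and 1 was lower (5.56%, background 4.92%). The median was −0.09 against −0.04, with 13 of 18 differences below 0 and 12809 of 22746 over all probe sets. In nNOS drought versus nNOS control 1 was higher (5.56%, background 14.0%) and 3 were lower (16.7%, background 10.8%). The median there was −0.06 against −0.02. Of the 16 expansins above the lowest quartile of signal, 6 were higher and 2 lower without drought, and 5 higher and 0 lower with drought. The counts between genotypes changed with the arrays and the settings of the fit. The 7 without drought became 2 when WT control replicate 2 was left out, and 5 when any 1 of the other 7 arrays was. The 5 under drought became 0 when any 1 of the 4 drought arrays was left out, 2 without either WT control array and 7 without either nNOS control array. With both nNOS control arrays left out, 7 expansins were higher and 1 was lower under drought. Under the 3 other normalizations the counts were 7 to 9 higher and 2 lower without drought, and 5 to 7 higher and 0 lower with drought. With median centring, which gave the 9 and 7, all 22746 probe sets had 4708 and 2352 higher and 2972 and 1021 lower, without and with drought. These were 3028 and 838 higher and 3412 and 1129 lower with quantile normalization. With cyclic loess normalization they were 3286 and 937 higher and 3099 and 1231 lower. With array weights, or with only the 4 arrays compared in the fit, 3 expansins were higher without drought and 7 with drought. For these settings and for arrays left out, counts over all probe sets are not given, so the expansin counts there have no background.

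**Figure D3:**
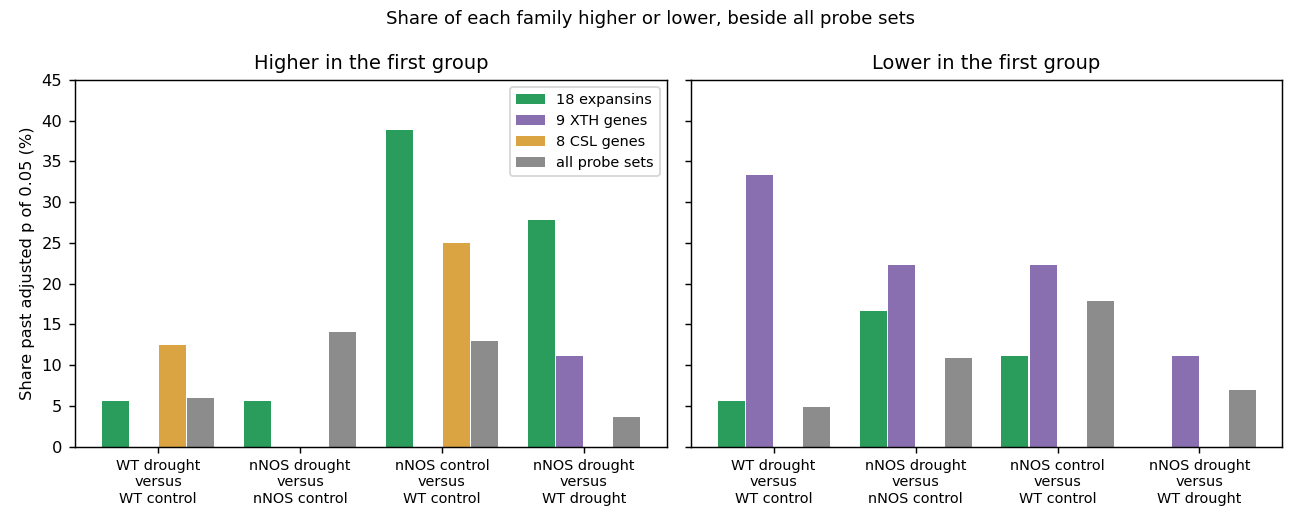
Share (y axis, %) of the 18 expansins, 9 XTH genes, 8 CSL genes and all 22746 probe sets that were higher (left panel) or lower (right panel) in the first group named, at a limma adjusted p of 0.05, in each of the 4 comparisons. The expansin bars stand at 38.9% and 27.8% for the 2 comparisons of nNOS with WT on the left, above the bars for all probe sets, and XTH genes have a bar in each comparison on the right but in 1 comparison on the left.

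Among the 4 beta-expansins, 3 were higher in nNOS transgenic plants in each comparison of genotypes. Of all probe sets, 13.0% were higher without drought and 3.68% with drought. EXPB1 (AT2G20750) read 5.34 and 5.46 in WT control, 5.54 and 5.54 in WT drought, 6.51 and 6.32 in nNOS control and 5.85 and 6.07 in nNOS drought. All 4 arrays of nNOS plants lay above all 4 arrays of WT plants, the well-watered nNOS arrays highest. EXPB1 was 2.02-fold higher in well-watered nNOS than WT plants (log2 1.02 ± 0.12 SE, limma adjusted p = 0.000203) and 1.33-fold higher under drought (log2 0.42 ± 0.12 SE, adjusted p = 0.048). It fell by 0.46 with drought in nNOS plants (adjusted p = 0.0171), and its difference in WT was 0.14 (adjusted p = 0.455). Without WT control replicate 1 or nNOS control replicate 1 the difference without drought was 0.95 or 0.92, so that it no longer reached 2-fold.

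EXPB3 (AT4G28250) was the expansin that rose with drought. It read 5.81 and 5.53 in WT control, 6.11 and 6.24 in WT drought, 6.12 and 5.98 in nNOS control and 6.61 and 6.80 in nNOS drought. Arrays of WT drought and nNOS control overlapped, between the low WT control and the high nNOS drought arrays. The rise with drought was 0.51 ± 0.13 in WT and 0.65 ± 0.13 in nNOS plants (log2 ± SE, limma adjusted p = 0.0308 and 0.00435), and the difference of nNOS from WT was 0.38 without and 0.53 with drought (adjusted p = 0.0434 and 0.0301). The 2 drought responses differed by 0.14 ± 0.18, with an adjusted p of 0.728. The rise in nNOS plants held under each alternative setting tried; the rise in WT did not pass under quantile normalization or cyclic loess normalization.

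EXPB2 (AT1G65680) read 3.84 and 3.90 in WT control, 3.51 and 3.59 in WT drought, 3.90 and 4.25 in nNOS control and 4.1002 and 4.2376 in nNOS drought. The WT drought arrays were the lowest and did not overlap with the nNOS drought arrays. It was higher in nNOS drought than in WT drought by 0.62 ± 0.13 (SE; limma adjusted p = 0.0181), while the drought difference was −0.32 in WT (adjusted p = 0.135) and 0.09 in nNOS plants (adjusted p = 0.635). EXPB5 (AT3G60570), with signals of 2.54 to 3.23 and a mean of 2.81, is one of the genes below the lowest quartile, so that its difference of 0.44 between nNOS control and WT control (adjusted p = 0.0258) is one of signals that cannot be separated from absence. It did not pass after quantile or cyclic loess normalization. Its difference under drought was 0.26 (adjusted p = 0.201).

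Of the 10 alpha-expansins, 4 were higher and 1 was lower in well-watered nNOS than WT plants. Under drought, 2 were higher and 0 lower in nNOS than in WT plants. Over all probe sets, 13.0% were higher and 17.9% lower without drought, and 3.68% and 7.0% with drought. EXPA8 (AT2G40610) had the brightest probe set of the 37 genes. Its signals were 9.38 and 9.36 in WT control, 9.34 and 9.38 in WT drought, 10.25 and 10.14 in nNOS control and 9.49 and 9.70 in nNOS drought. The 4 WT arrays lay within a narrow band irrespective of drought, and both groups of nNOS plants lay above it, nNOS control by far the most. EXPA8 was 1.77-fold higher in well-watered nNOS than WT plants (log2 0.83 ± 0.11 SE, limma adjusted p = 0.000397). It fell by 0.60 ± 0.11 with drought in nNOS plants (adjusted p = 0.00286), against a difference of −0.01 in WT (adjusted p = 0.978). Under drought the difference of nNOS from WT was 0.23 (adjusted p = 0.187). The group in which EXPA8 was highest is the one with the bright poly-A controls, whose part in this result was not tested.

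EXPA18 and EXPA7 are known for their activity in root hairs, and both had dim signals in these leaves. EXPA18 (AT1G62980) read 3.54 and 3.52 in WT control, 3.04 and 3.52 in WT drought, 4.00 and 4.20 in nNOS control and 3.72 and 4.11 in nNOS drought. Each of the 4 nNOS arrays exceeded each of the 4 WT arrays. The difference was 0.57 ± 0.17 without drought (limma adjusted p = 0.0282) and 0.64 ± 0.17 with drought (adjusted p = 0.0412), the largest increase of the 37 genes in the latter comparison; under drought it did not pass after quantile or cyclic loess normalization. The drought differences were −0.25 in WT and −0.18 in nNOS plants (adjusted p = 0.365 and 0.477). EXPA7 (AT1G12560) read 3.83 and 3.31 in WT control, 2.99 and 3.09 in WT drought, 3.94 and 3.64 in nNOS control and 3.28 and 3.08 in nNOS drought. The drought arrays were below the control arrays in both genotypes. EXPA7 fell by 0.61 in nNOS plants (adjusted p = 0.0232, not passed after quantile or cyclic loess normalization), and the difference of −0.53 in WT had an adjusted p of 0.0687. Its drought means, 3.04 in WT and 3.18 in nNOS plants, lay close to the lowest quartile of 3.10, below which signal cannot be separated from absence. The root marker PYK10 differed by −0.02 with drought in WT and by 0.10 in nNOS plants.

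EXPA16 (AT3G55500) ran the other way. It read 6.91 and 6.99 in WT control, 6.71 and 6.71 in WT drought, 6.54 and 6.28 in nNOS control and 6.41 and 6.43 in nNOS drought. All nNOS arrays were below all WT arrays. The gene was lower by 0.54 ± 0.11 in well-watered nNOS than WT plants (limma adjusted p = 0.00485), a difference that passed under each alternative tried, and its difference under drought was −0.28 (adjusted p = 0.125). EXPA9, EXPA15 and EXPA4 had smaller shifts upwards. EXPA9 (AT5G02260) was higher by 0.42 and EXPA15 (AT2G03090) by 0.32 in well-watered nNOS than WT plants (adjusted p = 0.0177 and 0.0481). EXPA4 (AT2G39700) read 7.28 and 7.10 in WT control, 7.07 and 7.12 in WT drought, 7.47 and 7.44 in nNOS control and 7.46 and 7.50 in nNOS drought, again with every nNOS array above every WT array. It was higher by 0.39 ± 0.11 under drought (adjusted p = 0.0425), and the 0.26 without drought had an adjusted p of 0.0809. EXPA20, EXPA21 and EXPA24 passed in none of the comparisons; EXPA20 differed by 0.46 between nNOS control and WT control (adjusted p = 0.0713), with overlapping arrays.

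Of the 4 expansin-like genes, 0 were higher and 1 was lower in nNOS than in WT plants without drought, and 0 passed under drought. The shares of all probe sets were 13.0% higher and 17.9% lower without drought, and 3.68% and 7.0% with drought. EXLA1 (AT3G45970), the second brightest expansin probe set, read 10.12 and 10.15 in WT control, 9.64 and 9.46 in WT drought, 9.21 and 9.20 in nNOS control and 9.31 and 8.94 in nNOS drought. WT control stood highest, WT drought came next, and both nNOS groups were lowest and overlapped. EXLA1 was 1.90-fold lower in well-watered nNOS than WT plants (log2 −0.93 ± 0.13 SE, limma adjusted p = 0.000577), the largest fall among the 37 genes, and it passed under each alternative tried. With drought it fell by 0.58 ± 0.13 in WT (adjusted p = 0.0203) and differed by −0.08 in nNOS plants (adjusted p = 0.693). When any 1 of the 4 WT arrays was left out, the fall in WT did not pass, at log2 differences of −0.49 to −0.67. EXLA2, EXLA3 and EXLB1 passed in none of the comparisons. EXLA3, the direct neighbour of EXLA1 on the chromosome with 0 protein-coding genes between them in RefSeq, lay between 2.84 and 3.38 and differed by −0.26 between nNOS control and WT control (adjusted p = 0.162). EXLB1 differed by 0.45 with drought in nNOS plants (adjusted p = 0.0675).

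**Figure D4:**
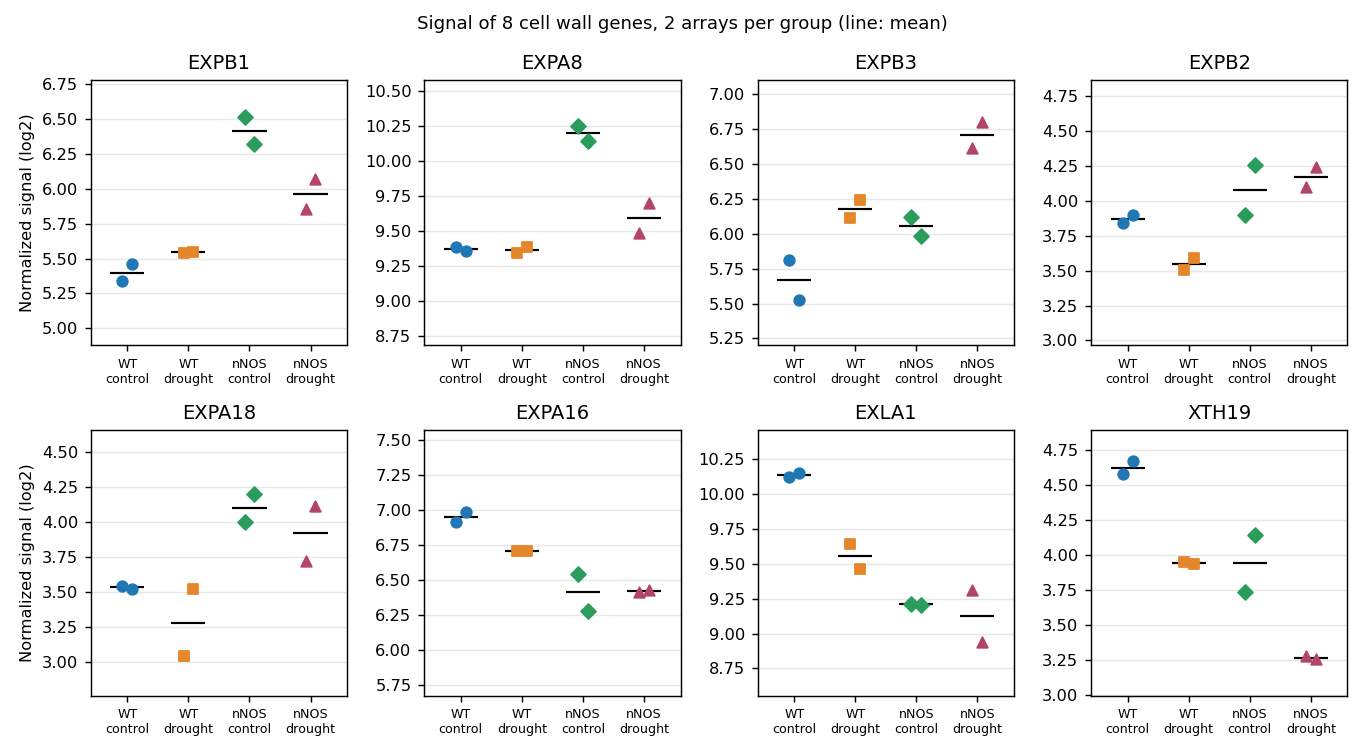
Normalized log2 signal (y axis, a separate range for each gene) of 7 expansin genes and XTH19 in the 4 groups (x axis); points are single arrays, 2 per group, and lines are group means. In EXPB1, EXPB3, EXPB2 and EXPA18 the nNOS means exceed the WT means of the same water regime, EXPA8 peaks in nNOS control, and EXPA16, EXLA1 and XTH19 are highest in WT control.

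Most of the 9 XTH genes found by name passed no test, and those that did were lower in the first group named, with 1 exception. With drought in WT, 3 of 9 fell and 0 rose (median −0.29), where 4.92% of all probe sets fell and 5.97% rose (median −0.04). In nNOS plants 2 of 9 fell and 0 rose (median −0.22), where 10.8% of all probe sets fell and 14.0% rose (median −0.02). The dim XTH20 was among those that fell in both genotypes. Between genotypes, 2 were lower (22.2%) and 0 higher without drought, where 17.9% of all probe sets were lower and 13.0% higher. With drought 1 was lower and 1 higher (11.1% each), against 7.0% and 3.68% of all probe sets. The direction of the family between genotypes was not stable to scaling: the median of −0.01 in both comparisons became 0.09 in both after median centring, when 2 genes were higher and 1 was lower in each. The 3 falls in WT became 0 without WT control replicate 1 or either WT drought array and 1 without WT control replicate 2. In nNOS plants the 2 falls became 1 without either nNOS drought array and 3 without nNOS control replicate 1 or either WT control array.

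XTH19 (AT4G30290) had the widest span of the 37 genes. It read 4.58 and 4.67 in WT control, 3.95 and 3.94 in WT drought, 3.74 and 4.15 in nNOS control and 3.28 and 3.26 in nNOS drought. WT control was highest, nNOS drought lowest, and WT drought lay within the range of nNOS control. Each step was of about the same size: XTH19 was lower with drought by 0.68 in WT and by 0.67 in nNOS plants, and lower in nNOS than in WT plants by 0.68 without and by 0.68 with drought (SE 0.13 each, limma adjusted p = 0.0113, 0.00426, 0.00314 and 0.0149). The drought responses of the genotypes differed by 0.01 ± 0.19 (adjusted p = 0.99). These 4 differences are built from 4 group means and are not 4 independent observations. The fall in nNOS plants and the difference without drought passed under each alternative tried.

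XTH18 (AT4G30280) is the next gene to XTH19 on the chromosome, with 0 protein-coding genes between them, and it moved less. It read 4.79 and 4.82 in WT control, 4.32 and 4.37 in WT drought, 4.63 and 4.59 in nNOS control and 4.22 and 4.56 in nNOS drought. WT control was highest, and the drought arrays were below the control arrays in both genotypes. XTH18 fell by 0.46 with drought in WT (limma adjusted p = 0.0364), and the difference of −0.22 in nNOS plants had an adjusted p of 0.214. XTH20 (AT5G48070), which together with XTH19 is known from the rejoining of cut Arabidopsis stems, was dim: 3.00 and 2.94 in WT control, 2.41 and 2.29 in WT drought, 3.22 and 3.04 in nNOS control and 2.72 and 2.76 in nNOS drought. The control arrays exceeded the drought arrays in both genotypes. Its mean of 2.80 is below the lowest quartile, so these are differences of signals that cannot be separated from absence: −0.62 with drought in WT, −0.39 in nNOS plants and 0.39 in nNOS drought versus WT drought (adjusted p = 0.00668, 0.0232 and 0.0455). The last 2 did not pass after quantile or cyclic loess normalization.

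XTH16 (AT3G23730) was lower by 0.45 in well-watered nNOS than WT plants (limma adjusted p = 0.0325), from 6.90 and 6.95 to 6.68 and 6.27; the arrays did not overlap, but the test did not pass after any of the 3 other normalizations. XTH32 (AT2G36870), the brightest probe set of the 9 XTH genes, read 7.94 and 8.05, 7.80 and 7.92, 7.86 and 8.09, and 8.11 and 8.33 in WT control, WT drought, nNOS control and nNOS drought. The nNOS drought arrays were the highest, and the difference from WT drought was 0.36 (adjusted p = 0.0842). XTH21, XTH26, XTH29 and XTH33 passed in none of the comparisons; the first 3 of these were below the lowest quartile of signal. XTH29 (AT4G18990) differed by 0.31 with drought in WT (adjusted p = 0.0988), and XTH26 (AT4G28850) by 0.34 between nNOS control and WT control (adjusted p = 0.064) and by −0.30 with drought in nNOS plants (adjusted p = 0.109).

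Among the CSL genes, which serve the synthesis of wall polysaccharides, CSLC04, CSLA01 and CSLD2 passed a test. Of the 8 CSL genes, 1 rose with drought in WT (12.5%) and 0 changed with drought in nNOS plants. In well-watered plants 2 were higher in nNOS than in WT (25.0%), and 0 differed between the genotypes under drought. Of all probe sets, 5.97% rose with drought in WT, and 14.0% rose and 10.8% fell in nNOS plants. Between the genotypes 13.0% were higher without drought, and 3.68% were higher and 7.0% lower with drought. All 5 CSLC genes had probe sets. CSLC04 (AT3G28180), whose product makes the glucan backbone of xyloglucan, read 8.20 and 8.61 in WT control, 8.99 and 8.95 in WT drought, 8.56 and 8.47 in nNOS control and 8.82 and 8.80 in nNOS drought. The drought arrays were above the control arrays in both genotypes. It rose by 0.57 ± 0.13 in WT (limma adjusted p = 0.0238), and the difference of 0.30 in nNOS plants had an adjusted p of 0.132. The rise in WT did not pass without WT control replicate 1 or without either WT drought array. CSLC5, CSLC6, ATCSLC08 and CSLC12 passed in none of the comparisons. ATCSLC08 (AT2G24630) read 5.10 and 5.12 in WT drought and 4.69 and 4.58 in nNOS drought, a difference of −0.47 (adjusted p = 0.0595), and CSLC5 (AT4G31590) differed by −0.25 between nNOS control and WT control (adjusted p = 0.18). CSLC12 (AT4G07960), dim throughout at 2.87 to 3.23, differed by 0.19 under drought (adjusted p = 0.314).

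CSLA01 (AT4G16590), of the mannan synthase family, read 4.09 and 4.19 in WT control and 4.70 and 4.44 in nNOS control. It was higher by 0.43 ± 0.14 (limma adjusted p = 0.0352) in nNOS control, and its drought arrays, 4.07 and 4.18 in WT and 4.12 and 4.46 in nNOS plants, overlapped. CSLD2 (AT5G16910), a gene with a role in root hair growth, was higher by 0.35 in well-watered nNOS than WT plants (adjusted p = 0.0483) and differed by 0.04 under drought (adjusted p = 0.856). CSLA03 passed in none of the comparisons.

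The pectin methylesterase gene PME61 (AT3G59010) read 7.30 and 7.15 in WT control, 7.44 and 7.47 in WT drought, 7.67 and 7.67 in nNOS control and 7.61 and 7.37 in nNOS drought. WT control was lowest and nNOS control highest, and the drought groups overlapped. PME61 was higher by 0.45 ± 0.12 in well-watered nNOS than WT plants (limma adjusted p = 0.0132), and its difference under drought was 0.04 (adjusted p = 0.858). The test without drought did not pass without WT control replicate 2. The beta-galactosidase gene BGAL16 (AT1G77410) read 3.94 and 3.54 in WT control, 3.43 and 3.22 in WT drought, 3.06 and 3.64 in nNOS control and 3.49 and 3.26 in nNOS drought. Its 2 nNOS control arrays spanned most of the range, and it passed in none of the comparisons; the difference with drought in WT was −0.42 (adjusted p = 0.183).

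The question whether drought acted on the wall genes differently in the transgenic plants was put by testing the difference between the drought responses. At the adjusted p of 0.05, 0 of 37 genes passed, where 1.89% of all probe sets were higher, 1.75% lower and 3.64% either; with the 2-fold threshold, 0 genes were called and 0.747% of all probe sets were (0.312% higher and 0.435% lower). At an unadjusted p under 0.05 there were 7 of 37 genes, near the background of 19.1% of all probe sets at that threshold. The lowest adjusted p was that of EXPA8, whose response in nNOS plants was below that in WT by 0.60 ± 0.16 (SE; limma adjusted p = 0.0607), followed by EXPB1, also by 0.60 ± 0.17 (adjusted p = 0.0738). EXLA1 differed in the other direction by 0.50 ± 0.19 (adjusted p = 0.169). All 3 differences contain the nNOS control arrays. EXPA8 passed after cyclic loess normalization, with a filter on low signal and with a trended, robust prior (adjusted p = 0.0393, 0.0451 and 0.00344; 0.0586 to 0.238 under its other alternatives), and EXPB1 after cyclic loess normalization and with the trended, robust prior (0.0495 and 0.0489; 0.0524 to 0.244 under its other alternatives).

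Other genes of wall synthesis, pectin cleavage and wall sensing were largely out of reach, since 6 of 62 listed genes had an annotated probe set. In WT drought versus WT control and in nNOS drought versus WT drought 0 of these 6 passed. In nNOS drought versus nNOS control 1 was higher, as were 14.0% of all probe sets. In nNOS control versus WT control 1 was higher and 1 lower, against 13.0% and 17.9% of all probe sets. THE1 (AT5G54380), a receptor-like kinase that senses the state of the wall, read 7.79 and 7.89 in WT control, 8.10 and 8.16 in WT drought, 7.18 and 6.63 in nNOS control and 7.75 and 7.59 in nNOS drought. The nNOS control arrays were the lowest. THE1 was lower by 0.94 ± 0.16 in well-watered nNOS than WT plants (limma adjusted p = 0.0015) and rose by 0.77 ± 0.16 with drought in nNOS plants (adjusted p = 0.00564). IRX10 (annotated as GUT2), which takes part in xylan synthesis, was higher by 0.43 in well-watered nNOS than WT plants (adjusted p = 0.0161). COB, IRX15, ADPG1 and FER passed in none of the comparisons.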

How the data were processed

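Leaf RNA was measured on 8 Affymetrix ATH1 arrays, 2 in each of 4 groups assigned from the sample labels. The authors used Affymetrix Command Console software to extract signals and affylmGUI for the fold changes; the deposited values are normalized log2 signals, 1 per probe set and array, and the normalization is not given in the sources used here. Columns belonging to no sample of the series numbered 0.

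Group means of the 4 groups were fitted with limma 3.58.1 in R 4.3.3 to all 22810 probe sets, variances were moderated with eBayes, and p-values were adjusted over them by the Benjamini-Hochberg procedure; the 64 Affymetrix controls were then left out of counts. The estimate of spread is shared by all 8 arrays, and their number limits the precision. The script was tested on simulated data. Gene symbols came from the platform annotation (14016 probe sets listed, 13513 with 1 gene, 503 with several, 8794 not listed), and neighbouring genes from RefSeq. Of several probe sets of a gene the brightest was to be taken, but each gene had 1.

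Genes named by rule were those called, the brightest of each family, the largest change each way in each comparison, and the called or most changed genes of other wall lists. The other wall genes named were chosen after their values were seen. The genes and lists were chosen with earlier results of these data known. Alternatives were 3 further normalizations, a filter on signal below the 25th percentile, a fit to 4 arrays, array weights, a trended and robust prior, a replicate block, other call rules, and leaving out single arrays; leaving out both nNOS control arrays was chosen after seeing the data. Because same-numbered arrays of different groups deviated together with correlations of −0.12 to 0.12 only, replicate numbers were not taken as pairs.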

Additional observations from a re-analysis of the deposited data

Results flagged for a closer look

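One gene outside the naming rule had a drought response that differed between the genotypes by the test of that difference. PME41 (AT4G02330), a pectin methylesterase gene that the platform annotation lists under another symbol, read 6.25 and 6.46 in WT control, 7.09 and 7.05 in WT drought, 6.91 and 6.64 in nNOS control and 6.63 and 6.51 in nNOS drought. It rose by 0.72 with drought in WT (limma adjusted p = 0.00686) and differed by −0.21 in nNOS plants (adjusted p = 0.252). The difference between the responses was −0.92 ± 0.18 (SE; limma adjusted p = 0.0202), with both WT arrays moving up and both nNOS drought arrays below the nNOS control arrays. The test did not pass without WT control replicate 1, either WT drought array or either nNOS drought array, when the adjusted p was at most 0.0996. The gene was looked up because its family name stood among RefSeq synonyms, after the values of the 37 genes had been seen.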

How the results depend on the processing

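Of 33 differences of the 37 genes that passed the limma adjusted p of 0.05, 8 passed under every alternative run for them: EXPB1, EXPA8, EXLA1, EXPA16 and XTH19 in nNOS control versus WT control, and EXPA8, XTH19 and EXPB3 in nNOS drought versus nNOS control. With 8 differences of genes outside the naming rule, there were 665 values under alternatives, of which 475 passed as before, 190 no longer passed and 0 changed sign. Unless stated, the cause of a lost or moved result was not tested. For the 37 genes, only the other normalizations could have changed a sign. Leaving out 1 array leaves fewer arrays for the shared spread. Counts over all probe sets are not given for these fits or for the other settings below, so the counts of genes there have no background. Over the 8 such fits, genes higher and lower numbered 0 to 2 and 0 to 6 in WT drought versus WT control, 1 to 2 and 2 to 6 in nNOS drought versus nNOS control, 0 to 9 and 0 to 4 between the genotypes under drought and 2 to 8 and 3 to 5 in nNOS control versus WT control, the called genes 0 to 1 in nNOS control versus WT control, and the genes lower in the difference between responses 0 to 1 (ATCSLC08, −0.73, without nNOS control replicate 1). In WT drought the 2 higher and 4 lower genes became 0 and 0 without WT control replicate 1 or either WT drought array, and 1 and 2 without WT control replicate 2. In nNOS drought versus nNOS control the 5 lower genes became 2 and 3 without nNOS drought replicates 1 and 2, and the 1 higher gene became 2 without either nNOS control array. In nNOS control versus WT control the 10 higher genes became 2 without WT control replicate 2 and 6 without WT control replicate 1 or either WT drought array, and the 1 called gene became 0 without WT control replicate 1 or nNOS control replicate 1. In nNOS drought versus WT drought the 6 higher and 1 lower genes became 0 and 0 when any 1 of the 4 drought arrays was left out, the higher genes 2 without either WT control array, and the lower genes 4 without either nNOS control array or without both. With no fold threshold the called genes were 2 and 4, 1 and 5, 10 and 4, and 6 and 1 (higher and lower) in the order WT drought, nNOS drought, genotypes without drought and genotypes with drought. With array weights, 7 genes were lower in WT drought, 3 lower in nNOS drought, 4 higher in nNOS control versus WT control and 6 lower in the same comparison under drought; fitting only the 4 arrays compared gave 3, 4 and 4 for the last 3 of these. With the trended, robust prior, 3 genes were higher in nNOS drought, 3 lower in nNOS drought versus WT drought, and 1 higher (EXLA1) and 2 lower (EXPA8, EXPB1) in the difference between responses, where 2 were lower after cyclic loess normalization and 1 with the filter on low signal. With the replicate number as a block, 3 genes were higher in nNOS drought versus WT drought in place of 6; of these, expansins went from 5 to 3, alpha-expansins from 2 to 1 and XTH genes from 1 to 0. The block also moved the CSL genes higher in nNOS control versus WT control from 2 to 1 and the expansins lower in WT drought from 1 to 2, an alpha-expansin being the added gene; the numbers do not pair the samples. Array weights moved the expansins lower in WT drought from 1 to 4.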

Other observations

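Some wall genes of the same families could not be reached through the annotated symbol, and how many there were was not counted. The annotation did not list 8730 of the probe sets other than Affymetrix controls. RefSeq synonyms gave 4 of the unreached wall genes, PME41 (described above), XTH27, EXLB2 and PME39. XTH27 (AT2G01850, annotated as EXGT-A3) read 10.72 and 10.70 in WT control, 10.60 and 10.70 in WT drought, 10.26 and 10.33 in nNOS control and 10.88 and 10.55 in nNOS drought. The nNOS control arrays were the lowest: XTH27 was lower by 0.42 in well-watered nNOS than WT plants (limma adjusted p = 0.0264) and rose by 0.43 with drought in nNOS plants (adjusted p = 0.0284). XTH27 did not pass in the other 2 comparisons. Fits with an array left out aside, its difference in nNOS control versus WT control did not pass after median centring or with array weights. Its rise did not pass after cyclic loess normalization, with array weights or with only the 4 arrays compared in the fit. These results also depended on single arrays. With 1 array left out the log2 difference without drought was −0.38 to −0.45 and the rise 0.26 to 0.59. EXLB2 (AT4G30380) and PME39 (AT4G02300) had signals below the lowest quartile of all probe sets and passed in none of the comparisons.

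The 2 probe sets shared by several alpha-expansin genes were dim too, with means below the lowest quartile, where signal cannot be separated from absence. The probe set of EXPA23 and EXPA25, with a mean of 2.43, fell with drought by 0.44 in WT and by 0.33 in nNOS plants (limma adjusted p = 0.0228 and 0.0388). Which of the genes gave the signal cannot be told apart. Neither fall passed after quantile or cyclic loess normalization. The fall in nNOS plants also did not pass with array weights or with only the 4 arrays compared in the fit. With single arrays left out the log2 differences were −0.41 to −0.47 in WT and −0.27 to −0.38 in nNOS plants. The probe set annotated to EXPA22 and EXP26 passed in none of the comparisons.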
